A study of Mus musculus with 5 samples.

Results

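Zic2, Zic5, Six3, Sox3, Sox11, Dmrt3, Dmrta1, Mab21l1 and Tlx1 were taken by name from the deposited count table as a set of anterior epiblast and early neural genes, 9 of the 49671 genes listed, and all 9 were found. They were chosen by name with their count differences between the mutant and control embryos already known, so their values for that contrast are given as a description without a test. The libraries came from single mouse embryos of mixed strain background, at about E6.75 by the study's account, each made of the dissected epiblast and visceral endoderm (VE) without the extra-embryonic ectoderm (ExE). The 2 SO+ embryos were Sox2Cre-/- and Oct4 fl/+, and so kept Oct4 (gene symbol Pou5f1) with 1 floxed allele and 1 wild-type allele. The 3 SO− embryos were Sox2Cre+/- and Oct4 fl/-, so that Cre removed the single remaining Oct4 allele. Cre was driven by the Sox2 promoter, which is active in the epiblast and not in the VE, so the VE of an SO− embryo was not the target of the deletion. No embryo with Cre and an intact Oct4 pair was analysed here.

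Zic2 and Zic5 are zinc finger transcription factors of the anterior epiblast and neural plate, and Zic2 is needed for normal forebrain midline formation. Six3 is a homeobox factor of the most anterior neural plate and the eye field, where it restrains Wnt signalling. Sox3 is an HMG-box factor of neural progenitors in the SoxB1 group, whereas Sox11 belongs to the SoxC group and acts in early neuronal differentiation. Dmrt3 and Dmrta1 carry the DM DNA-binding domain and are expressed in the dorsal telencephalon, and Dmrt3 also in spinal interneurons. Mab21l1 is required for the eye, and Tlx1 is a homeobox factor best known for spleen formation and for subsets of hindbrain and spinal neurons, so neither is a general marker of the neural plate.

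Sequencing depth differed with genotype. The SO+ libraries held 27538119 and 27047148 counts and the SO− libraries 4134617, 1117566 and 4191498, a mean depth ratio of 8.67. A count of 0 therefore allowed up to 0.109 and 0.111 counts per 1000000 counts of the library (CPM) in SO+ and up to 0.726, 2.68 and 0.716 CPM in SO−, taking 3 counts as the limit. These limits, and the exact 95% binomial intervals used below, cover counting error only, since the protocol has no molecular identifiers. Each library carried a pair of indexes. The second index was the same for all SO+ embryos and differed from that of all SO− embryos, so it cannot be told apart from genotype. The first index varied within both genotypes. Oct4 was at 920.2 and 435 CPM in SO+ and at 27.8, 12.5 and 43.7 CPM in SO−, or 4.10%, 1.85% and 6.44% of the SO+ mean, which matches the labels of all 5 libraries. The summed level of 10 epiblast markers, Oct4 among them, was 5364 to 6668 CPM in SO+ and 2545 to 3617 in SO−. Dnmt3b made the largest part, at 3983 and 3263 CPM in SO+ and 1708, 1447 and 2286 CPM in SO−. Oct4, Dnmt3b, Utf1, L1td1, Otx2 and Tdgf1 were lower in all SO− embryos, Sox2 was higher, and Fgf5, Nanog and Pou3f1 overlapped. The epiblast markers thus did not fall together. The summed level of 13 VE markers was 4782 and 4963 CPM in SO+ and 6882, 6947 and 4481 CPM in SO−. It was thus above both SO+ values in the first and second SO− embryos and below them in the third. For 10 ExE markers the summed level was 20.3 to 26.2 CPM in SO+ and 30.1 to 52.8 CPM in SO−, with Elf5, Esrrb, Rhox9 and Wnt7b at 0 in the second SO− embryo. Hand1, also a mesoderm gene, was at 1.09 and 2.74 CPM in SO+ and 13.5, 24.2 and 11.9 CPM in SO−, and without it the ExE sums overlapped, at 19.2 to 23.4 and 18.1 to 28.6 CPM. Primitive streak and mesoderm markers summed to 548 to 902 CPM in SO+ and 601 to 831 in SO−, definitive endoderm markers to 324 to 376 and 770 to 997 CPM, and maternal decidua and blood markers to 2.65 to 6.69 and 4.47 to 7.01 CPM. Trh made the largest part of the definitive endoderm sums, at 216 and 88.0 CPM in SO+ and 649, 602 and 486 CPM in SO−. Trh, Cer1, Hhex and Sox17 were higher in all SO− embryos, and Foxa2 and Gsc overlapped. The part of these cell types in the values below was not tested. In these bulk libraries, fewer cells of a type and less RNA per cell cannot be told apart.

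The 9 genes did not shift in 1 direction between the genotypes. CPM values did not overlap between SO+ and SO− for 6 of them, with Six3, Sox11, Dmrt3 and Tlx1 higher in all SO− embryos and Zic2 and Zic5 lower. Sox3, Dmrta1 and Mab21l1 overlapped. Of the 12067 genes tested, 29.5% did not overlap, 13.9% being higher and 15.6% lower in SO−. In the edgeR quasi-likelihood fit over all genes, 3 of the 9 had a Benjamini-Hochberg adjusted p under 0.05 (hereafter, were called), namely Dmrt3 and Tlx1 on the higher and Zic5 on the lower side. The same threshold took 2.35% of all genes tested, 1.42% higher and 0.928% lower, and nothing is read from the count because this contrast chose the genes. The filter on low values kept 7 of the 9 and removed Sox3 and Mab21l1. Six3, Dmrt3 and Tlx1 were under its limit of 2.39 CPM in both SO+ embryos and passed only through the SO− embryos.

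**Figure D1:**
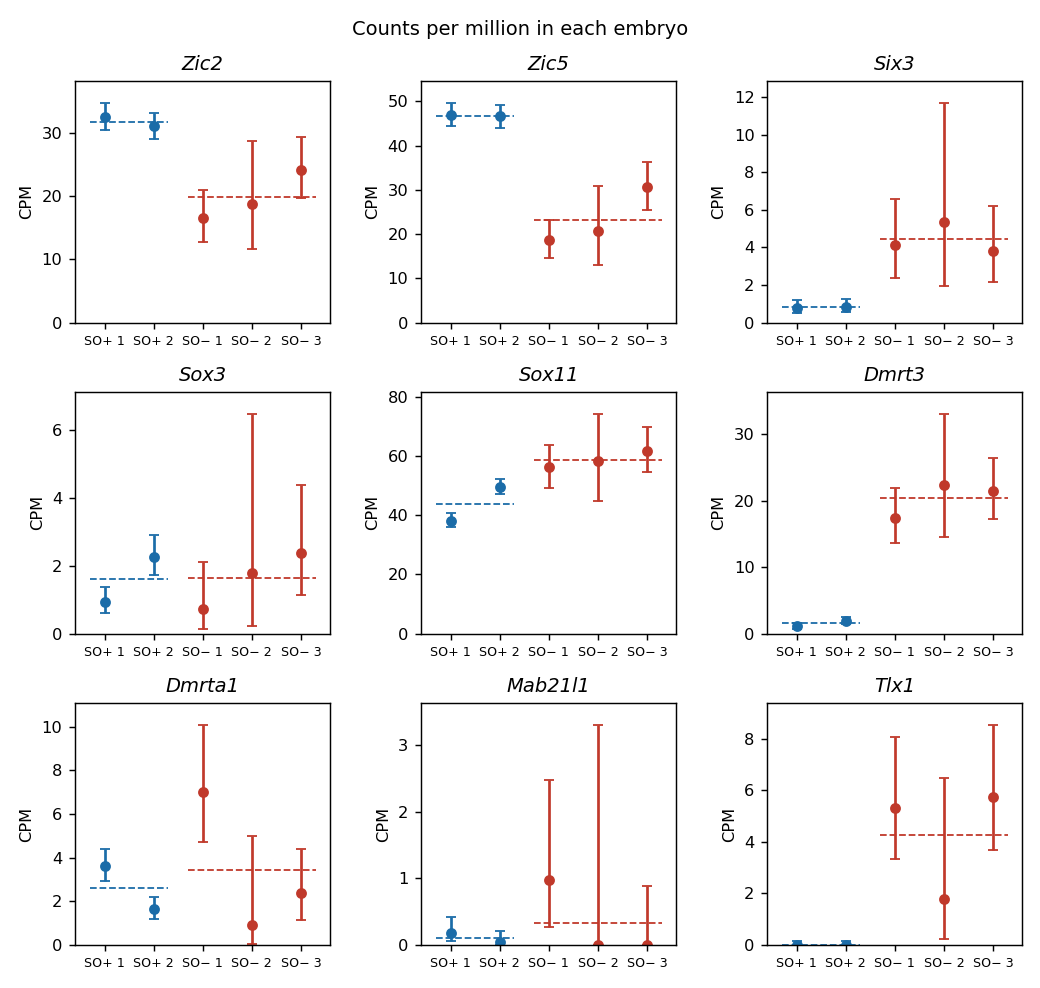
CPM of each of the 9 genes (vertical axes, linear and starting at 0) in the 2 SO+ and 3 SO− embryos. Points are single embryos with exact 95% binomial intervals and dashed lines are group means. Dmrt3 lies between 1.13 and 1.96 CPM in SO+ and between 17.4 and 22.4 CPM in SO−, whereas both Zic genes are lower in all 3 SO− embryos.

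The levels of different genes were compared as CPM per kb of exon. In SO+ the order of the group means was Zic2 at 11.0, Zic5 at 9.57, Sox11 at 5.29, Sox3 at 0.775, Dmrt3 at 0.631, Dmrta1 at 0.623, Six3 at 0.151, Mab21l1 at 0.0438 and Tlx1 at 0 CPM per kb. The upper part of this order was thus held by the Zic pair and Sox11, all above the other genes in both embryos. Among neighbours, Sox3 and Dmrt3 overlapped between embryos, as did Dmrt3 and Dmrta1. In SO− the order was Dmrt3 at 8.35, Sox11 at 7.06, Zic2 at 6.87, Zic5 at 4.76, Tlx1 at 2.00, Dmrta1 at 0.818, Six3 at 0.814, Sox3 at 0.791 and Mab21l1 at 0.129 CPM per kb. Dmrt3 moved from the fifth place in SO+ to the first in SO−, and Tlx1 from the last to the fifth. Without dividing by length only 3 of the 9 genes kept their place in the SO+ order and 2 in the SO− order, with Dmrt3 at rank 6 in SO+ and 3 in SO− and Tlx1 at 9 and 6. Zic5 and Tlx1 were the only neighbours in the SO− order that did not overlap.

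**Figure D2:**
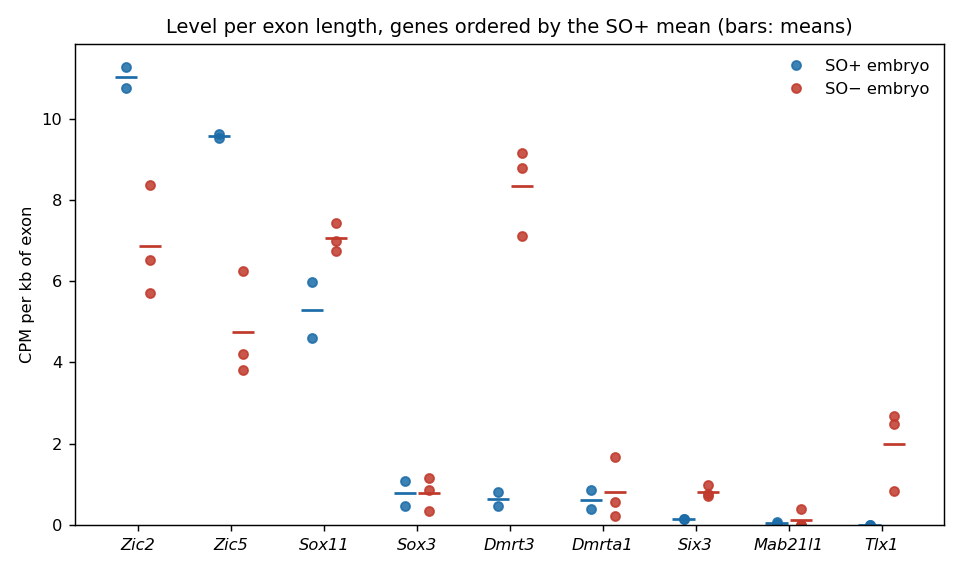
CPM per kb of exon (vertical axis) of the 9 genes, ordered along the horizontal axis by their SO+ mean; points are single embryos. The SO+ means fall from 11.0 for Zic2 to 0 for Tlx1, and the SO− points of Dmrt3, with a mean of 8.35, stand at the height of Sox11 and Zic2.

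Zic2 and Zic5 were the most abundant of the 9 genes per kb in SO+ and the only pair lower in every SO− embryo. They are neighbours on chromosome 14 (GRCm38, GENCODE M21), with Zic2 on the forward strand at chr14:122475435-122479852 in 3 exons and Zic5 on the reverse strand at chr14:122456795-122465677 in 2 exons, 9.8 kb apart. Their coding sequences share an identical run of 26 bases within the zinc finger region, in capitals below with 20 bases on each side (GENCODE M21 transcripts). It is shown as the longest identical stretch of the pair.
Zic2: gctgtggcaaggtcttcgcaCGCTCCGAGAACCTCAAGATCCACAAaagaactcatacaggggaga
Zic5: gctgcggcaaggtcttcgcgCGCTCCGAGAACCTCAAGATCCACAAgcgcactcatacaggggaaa

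Zic2 was at 32.5 and 31.0 CPM in the SO+ embryos, from 894 and 838 counts. In the SO− embryos it was at 16.4, 18.8 and 24.1 CPM, from 68, 21 and 101 counts, or 51.8%, 59.2% and 76.0% of the SO+ mean. No SO− embryo reached the lower SO+ value, and the third stood nearest to it with an interval of 19.6 to 29.3 CPM. The group means were 31.7 ± 1.05 (SD, n = 2) and 19.8 ± 3.92 (SD, n = 3) CPM, and the log2 fold change, SO− over SO+ after TMM scaling in edgeR, was −0.66 (SE 0.22). Zic5 was at 47.0 and 46.6 CPM in SO+ and at 18.6, 20.6 and 30.5 CPM in SO−. The SO− embryos thus held 39.8%, 44.0% and 65.3% of the SO+ mean, in the same order as for Zic2. Its group means were 46.8 ± 0.286 (SD, n = 2) and 23.2 ± 6.39 (SD, n = 3) CPM, with a log2 fold change of −0.97 (SE 0.22). The share of Zic2 in the summed counts of the pair was 40.9% and 39.9% in SO+ and 46.9%, 47.7% and 44.1% in SO−. All 3 SO− shares were above both SO+ shares, and a difference of the groups in this share was not tested. The exact 95% binomial intervals, which cover counting error only, were 38.8% to 43.0% and 37.8% to 42.1% in SO+ and 38.6% to 55.4%, 32.5% to 63.3% and 37.6% to 50.8% in SO−.

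The genes with a DM domain differed from each other. Dmrt3 (chr19:25610301-25623921, forward strand, 2 exons) was at 1.13 and 1.96 CPM in SO+, from 31 and 53 counts. In SO− it was at 17.4, 22.4 and 21.5 CPM, from 72, 25 and 90 counts in the far shallower libraries. The SO− embryos were at 11.3, 14.5 and 13.9 times the SO+ mean, so the size of the difference was alike in all 3. The group means were 1.54 ± 0.590 (SD, n = 2) and 20.4 ± 2.64 (SD, n = 3) CPM, with a mean ratio of 13.2 and a log2 fold change of 3.71 (SE 0.40). Dmrta1 (chr4:89679436-89694772, forward strand, 2 exons) was at 3.60 and 1.63 CPM in SO+ and at 7.01, 0.895 and 2.39 CPM in SO−. These values overlapped, and the SO− spread rested on 29, 1 and 10 counts. Its log2 fold change of 0.57 (SE 0.69) became −0.46 without the first SO− embryo, so the direction for Dmrta1 depended on that embryo.

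The genes beside Dmrt3 on chromosome 19 were low in all embryos. Dmrt1, a DM-domain factor of testis development 6 kb upstream, had 18 and 27 counts in SO+ and 4, 0 and 3 in SO−, or at most 0.998 CPM in any embryo. Dmrt2, on the other side at 48.5 kb, had 0 counts in both SO+ embryos and 1, 1 and 2 in SO−. Neither passed the filter, and neither reached the SO− level of Dmrt3.

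Six3 (chr17:85613608-85629302, forward strand, 2 exons) was low in SO+ and higher in every SO− embryo. It was at 0.799 and 0.850 CPM in SO+, from 22 and 23 counts, and at 4.11, 5.37 and 3.82 CPM in SO−, from 17, 6 and 16 counts. The groups did not overlap, although each SO− value rests on few reads. The group means were 0.825 ± 0.0364 (SD, n = 2) and 4.43 ± 0.824 (SD, n = 3) CPM, a mean ratio of 5.38 and a log2 fold change of 2.37 (SE 0.66). Six3 lies on the same chromosome as Pou5f1 (chr17:35506018-35510772), 50.1 Mb away.

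Six3os1, a noncoding gene on the opposite strand, shares 106 exon bases with Six3. It had 1 and 15 counts in SO+ and 41, 1 and 14 in SO−, with a log2 fold change of 4.11 (SE 1.05) that did not pass the test (edgeR quasi-likelihood test, Benjamini-Hochberg adjusted p = 0.0622). Whether the counting used strand is not given in the sources used here, and without it reads in the shared bases cannot be told apart. Six2, a homeobox factor of the kidney and face that lies 55 kb away on the opposite strand, was at 0.399 and 1.44 CPM in SO+ and at 5.32, 6.26 and 3.58 CPM in SO−. Its log2 fold change of 2.40 (SE 0.73) missed the threshold as well (edgeR quasi-likelihood test, adjusted p = 0.131). The groups did not overlap for Six2, as for Six3. Camkmt, a methyltransferase gene 155 kb away on the other side of Six3, had a log2 fold change of −0.55 (edgeR quasi-likelihood test, adjusted p = 0.794).

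Tlx1 (chr19:45150680-45156943, forward strand, 3 exons) had no count in either SO+ embryo and counts in all 3 SO− embryos. The SO− counts were 22, 2 and 24, or 5.32, 1.79 and 5.73 CPM. With the SO+ level set to the mean limit that a count of 0 allows per library, 0.110 CPM, the SO− mean of 4.28 ± 2.17 CPM (SD, n = 3) was at least 38.9-fold higher. The lowest SO− embryo stood 16.1 times above the higher SO+ limit, but from only 2 counts, fewer than the 3 counts of its own limit. The antisense gene Tlx1os and the neighbour Lbx1, a homeobox factor of the hindbrain, spinal cord and muscle precursors, were at 0 in all 5 embryos. Kazald1, on the other side, had at most 4 counts in an embryo.

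Mab21l1 (chr3:55782510-55785001, forward strand, 1 exon) was close to absent throughout, with 5 and 1 counts in SO+ and 4, 0 and 0 in SO−. Both groups lay around the limit of 3 counts, so no fold change is given. The SO− counts came from the first embryo only. Mab21l1 shares 981 exon bases with Nbea, a neuronal trafficking gene on the opposite strand that was at 10.7 and 5.55 CPM in SO+ and 5.56, 8.05 and 4.77 CPM in SO−, and its few counts cannot be told apart from reads of Nbea. The log2 fold change of Nbea was −0.48 (edgeR quasi-likelihood test, adjusted p = 0.722), and that of Dclk1, a doublecortin-like kinase gene on the other side, was −1.17 (adjusted p = 0.239 by the same test).

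The Sox genes were also unlike each other. Sox11 (chr12:27334264-27342574, reverse strand, 1 exon) was at 38.2 and 49.7 CPM in SO+ and at 56.1, 58.2 and 61.8 CPM in SO−. All 3 SO− embryos lay above the higher SO+ embryo. The group means were 43.9 ± 8.10 (SD, n = 2) and 58.7 ± 2.88 (SD, n = 3) CPM, and the log2 fold change of 0.43 (SE 0.17) ran from 0.24 to 0.63 when 1 embryo at a time was left out. Sox3 (chrX:60891366-60893430, reverse strand, 1 exon) was at 0.944 and 2.26 CPM in SO+ and at 0.726, 1.79 and 2.39 CPM in SO−. The groups overlapped, with means of 1.60 ± 0.927 (SD, n = 2) and 1.63 ± 0.841 (SD, n = 3) CPM, and the log2 fold change without the filter was −0.02 (SE 0.80). The SO− values of Sox3 rest on 3, 2 and 10 counts, and a difference was not detectable at this depth. Cmpk2, a mitochondrial nucleotide kinase gene and the nearest one on the 3′ side of Sox11, had a log2 fold change of 1.57 (edgeR quasi-likelihood test, adjusted p = 0.408).

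Both Sox genes share long identical coding runs with a relative of the same group, shown as the longest identical stretch of each pair. By the study's methods the reads were longer than any run given here, so sequence outside a run was also available for assigning them. The run was 48 bases between Sox11 and Sox4 and 45 bases between Sox3 and Sox1, again in capitals with 20 flanking bases (GENCODE M21 transcripts).
Sox11: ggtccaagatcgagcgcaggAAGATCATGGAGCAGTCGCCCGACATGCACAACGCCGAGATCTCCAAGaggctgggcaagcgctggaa
Sox4: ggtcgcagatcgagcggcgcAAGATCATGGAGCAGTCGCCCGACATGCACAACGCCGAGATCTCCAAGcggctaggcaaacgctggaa
Sox3: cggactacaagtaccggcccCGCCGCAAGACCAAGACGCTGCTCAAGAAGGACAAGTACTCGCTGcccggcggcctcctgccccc
Sox1: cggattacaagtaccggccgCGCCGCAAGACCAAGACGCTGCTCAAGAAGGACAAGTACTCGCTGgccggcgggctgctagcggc

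Sox1, the earliest general marker of the neural plate, had 0 and 6 counts in SO+ and 1, 0 and 0 in SO−. It was thus at its detection limit in both groups, with fewer counts than Sox3 in each of the 5 embryos. Sox4, a SoxC factor like Sox11, had a log2 fold change of 0.06 (edgeR quasi-likelihood test, adjusted p = 0.949). The identical runs were shorter for Dmrt3 and Dmrta1 (20 bases), Six3 and Six6 (20), Mab21l1 and Mab21l2 (26) and Tlx1 and Tlx3 (31).

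The profiles over the 5 embryos were set side by side as log2 CPM centred on each gene's mean, for the 7 genes that passed the filter. Of the 21 pairs, Zic2 and Zic5 were the most alike, with a root-mean-square difference of 0.18, followed by Zic2 and Sox11 at 0.58 and Six3 and Dmrt3 at 0.74. Tlx1 and Zic5 were the least alike at 2.84. Zic2 and Sox11 both spanned little over the embryos, although their differences between the genotypes had opposite signs. The mean profile of the 7 genes was carried by Tlx1, Dmrt3 and Six3, whose SO− minus SO+ differences were 4.67, 3.64 and 2.22 log2 units, against −0.69 for Zic2 and −1.03 for Zic5. It was nearest, among 9301 genes with enough counts to rank, to those of Adamts15 at 0.128, Trp53i11 at 0.147, Sox13 at 0.168, Ccnjl at 0.171 and H2afy2 at 0.176. Only 2 of these 5 were still among the nearest with a prior count of 0.5 in place of 2.

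**Figure D3:**
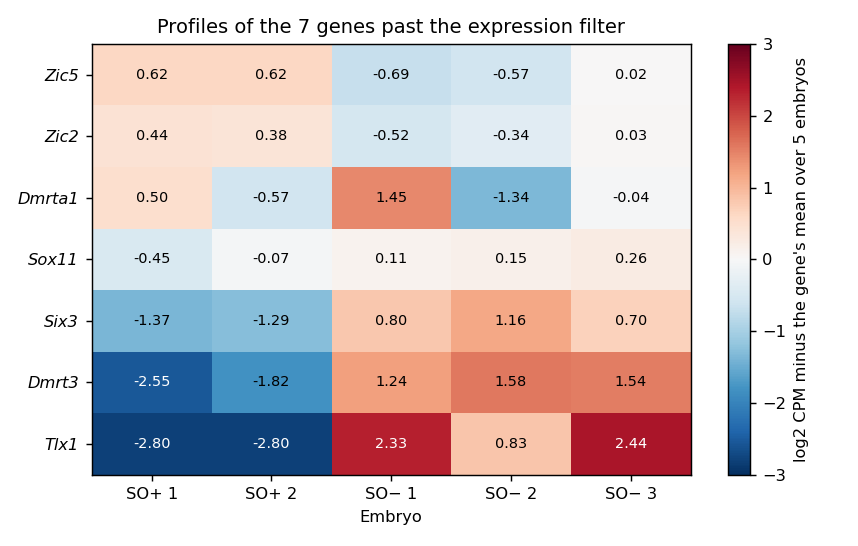
Log2 CPM of the 7 genes that passed the filter (rows), centred on each gene's mean over the 5 embryos (columns, SO+ then SO−); the colour scale is in log2 units. Dmrt3, Six3 and Tlx1 are low in both SO+ embryos and high in SO−. Zic2 and Zic5 are above their means in SO+ and below them in the first and second SO− embryos. The third SO− embryo is close to the mean for both, at 0.03 and 0.02. Dmrta1 is above its mean in the first embryo of each group.

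RefSeq gave a start site for 6 of the 9 genes, and the 250 bases before it are shown for Zic5, the lower gene with an entry, and for Dmrt3 and Tlx1, the genes furthest on the higher side. Capitals mark CpG sites and the sequences read 5′ to 3′ on the gene's strand (RefSeq, GRCm38.p6). The windows lie at chr14:122465659-122465908 on the reverse strand for Zic5, chr19:25610287-25610536 on the forward strand for Dmrt3 and chr19:45150465-45150714 on the forward strand for Tlx1.
Zic5: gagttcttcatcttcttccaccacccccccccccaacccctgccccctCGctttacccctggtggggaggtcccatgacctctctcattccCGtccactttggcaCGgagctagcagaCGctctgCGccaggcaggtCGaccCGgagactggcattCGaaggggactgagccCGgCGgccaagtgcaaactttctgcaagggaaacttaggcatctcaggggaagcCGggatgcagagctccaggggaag
Dmrt3: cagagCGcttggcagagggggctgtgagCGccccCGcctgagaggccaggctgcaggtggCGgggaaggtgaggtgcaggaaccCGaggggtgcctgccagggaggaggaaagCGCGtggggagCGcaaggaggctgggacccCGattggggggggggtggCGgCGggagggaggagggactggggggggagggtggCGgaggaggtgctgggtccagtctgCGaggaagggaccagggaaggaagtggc
Tlx1: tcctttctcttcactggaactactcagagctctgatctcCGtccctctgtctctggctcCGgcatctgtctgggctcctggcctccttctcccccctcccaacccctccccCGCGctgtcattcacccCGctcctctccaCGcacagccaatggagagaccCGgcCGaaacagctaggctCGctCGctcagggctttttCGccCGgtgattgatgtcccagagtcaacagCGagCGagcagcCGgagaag

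These windows held 11, 13 and 15 CpG sites, against a median of 6 over 32851 promoters, and 64.4%, 68.5% and 72.7% of promoters held fewer. The lower gene and the higher genes were thus similar in CpG content. The octamer ATGCAAAT, bound by Oct4 and other POU factors, is found on either strand in 1.74% of promoters from 250 bases before to 50 after the start. The SOX motif CATTGT is found in 12.6% and the ZIC motif CAGCAGG in 10.5%. None of these letters was found in the windows of Zic5, Six3, Sox11, Dmrt3, Dmrta1 or Tlx1, which says nothing about sites elsewhere.

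Among 22 relatives of the 9 genes in the same families, 8 were abundant enough to test, and 1 of them, Mab21l2, was called higher (2.35% of all genes tested were called in either direction). This list and those below were chosen with earlier results of these data known, so nothing is read from their counts of calls. Mab21l2, needed for the eye and the body wall, rose from 1.27 and 2.26 CPM in SO+ to 18.9, 8.95 and 22.4 CPM in SO−, with a log2 fold change of 3.32 (SE 0.46, edgeR quasi-likelihood test, Benjamini-Hochberg adjusted p = 0.00211). The call was lost without the first SO− embryo (adjusted p = 0.0534, edgeR). Sox2, a SoxB1 factor of pluripotent and neural cells, had a log2 fold change of 0.56 (adjusted p = 0.514), Six4 0.37 (adjusted p = 0.617) and Sox12 −0.59 (adjusted p = 0.474), all by edgeR. The median over the 8 tested relatives was 0.47, beside −0.0019 over all genes tested. Zic1, Zic4 and Tlx3 were at 0 in every embryo, and no untested relative went above 4.47 CPM.

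Of 24 genes of the anterior epiblast and forebrain, 9 were tested and 1 of them, Utf1, was called, on the lower side (0.928% of all genes tested were called lower and 1.42% higher). Utf1, a chromatin factor of pluripotent cells and of the epiblast rather than of neural tissue, fell from 511 and 393 CPM to 92.9, 65.3 and 149 CPM, a log2 fold change of −2.08 (SE 0.23, edgeR quasi-likelihood test, adjusted p = 0.000406). Utf1 kept its call whichever embryo was left out. Otx2, Pou3f1, Otx1 and Sp8 had log2 fold changes of −0.23, −0.84, 1.50 and 0.96, none past the test (edgeR adjusted p = 0.449, 0.300, 0.0871 and 0.380). The median of the 9 tested genes was 0.22. Utf1, Otx2 and Pou3f1 were also among the 10 epiblast markers, whose sum was lower in SO−, and the part of that in these values was not tested.

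Of 28 neural progenitor genes, 8 were tested, 1 was called higher and 1 lower (1.42% and 0.928% of all genes tested). Cdh2, the N-cadherin gene, rose with a log2 fold change of 0.97 (SE 0.23, edgeR quasi-likelihood test, adjusted p = 0.0445), a call that was lost on leaving out the first SO+ embryo or any single SO− embryo (adjusted p up to 0.345, edgeR). Tubb3, the neuronal beta-tubulin gene, fell from 36.4 and 23.7 CPM in SO+ to 8.47, 5.37 and 11.2 CPM in SO−, a log2 fold change of −1.74 (SE 0.30, edgeR quasi-likelihood test, adjusted p = 0.00800). Its call was lost without the first or the second SO− embryo (adjusted p up to 0.141, edgeR). Hes1, a Notch effector, had 0.55 (adjusted p = 0.0669), Msi1 −0.16 (adjusted p = 0.845), Nes, the progenitor intermediate filament, −0.85 (adjusted p = 0.200) and Crabp2 −0.09 (adjusted p = 0.957), all log2 fold changes by edgeR. The median of the 8 tested genes was −0.16.

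Of 9 neural commitment factors, 7 were tested and 0 were called by the edgeR quasi-likelihood test, by DESeq2 or under any other setting, with 1 at an unadjusted p under 0.05, Sall3, at a log2 fold change of −0.94 (edgeR adjusted p = 0.221). Gmnn, the geminin gene, had −0.12, Tcf7l1, a Wnt target repressor, −0.27, Ncoa3 0.32 and Churc1 0.11, and the median was 0.11. Of 19 genes of the surface ectoderm and neural plate border, which adjoin the neural plate, 11 were tested and 2 were called higher (1.42% of all genes tested), Krt8 by a log2 fold change of 0.85 (SE 0.14, edgeR quasi-likelihood test, adjusted p = 0.00520) and Krt18 by 0.90 (SE 0.13, adjusted p = 0.00247). These keratins are made by simple epithelia in general, the VE included, and both calls were lost without the first or the second SO− embryo (adjusted p up to 0.119 and 0.0745, edgeR). Msx1, a plate border factor, had 1.16 (adjusted p = 0.0787), Grhl2 0.27 (adjusted p = 0.798), Epcam 0.04 (adjusted p = 0.941) and Cdh1 −0.09 (adjusted p = 0.845), all by edgeR. An unadjusted edgeR p under 0.05 was reached by 8 of the 11 tested genes. In the other lists it was reached by 4 of 9 anterior genes, 4 of 8 neural progenitor genes and 2 of 8 relatives. The share over all genes at this threshold was not computed. The median of the 11 tested genes was 0.90. The VE marker sum ranged from 4782 to 4963 CPM in SO+ and from 4481 to 6947 in SO−, and its part in the keratin values was not tested.

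**Figure D4:**
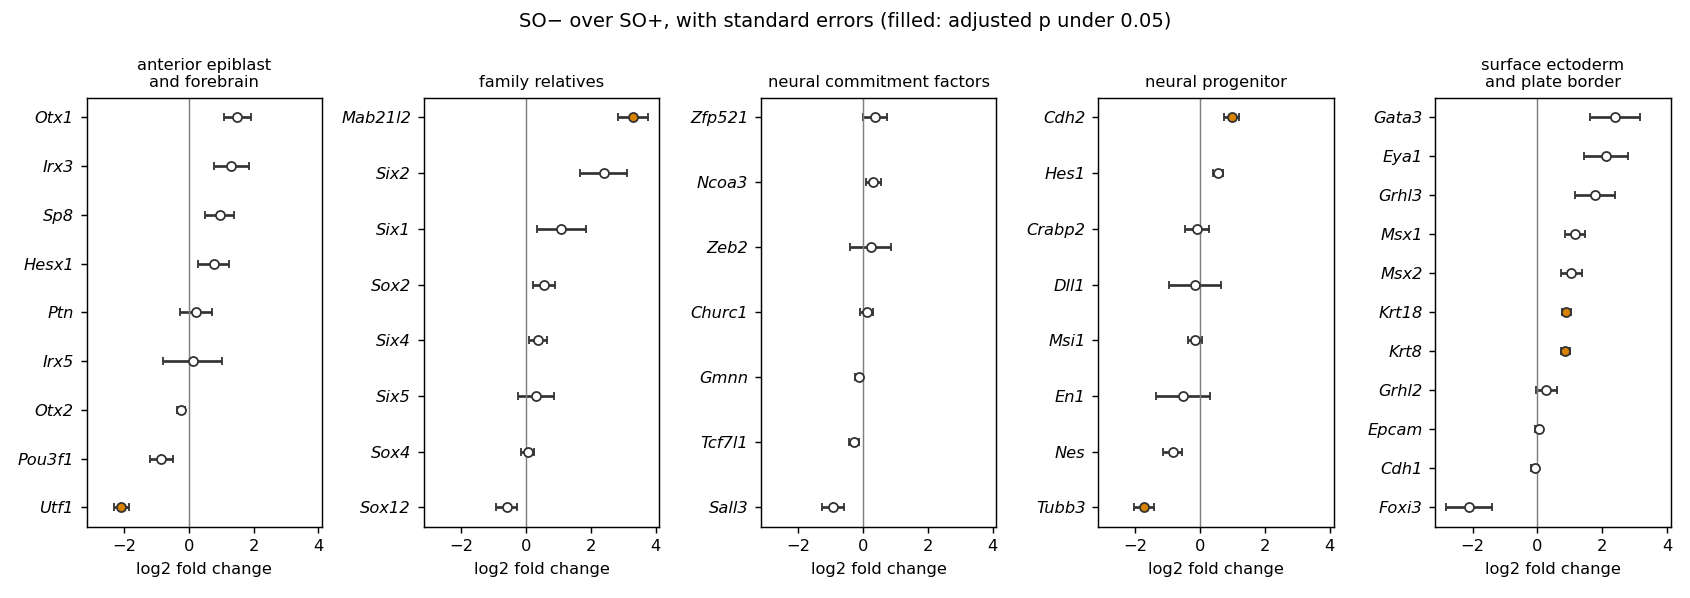
Log2 fold changes, SO− over SO+, with their standard errors for the tested genes of the 5 lists, 8 family relatives, 9 anterior epiblast and forebrain genes, 8 neural progenitor genes, 7 neural commitment factors and 11 surface ectoderm and plate border genes. Filled points passed the edgeR test at an adjusted p under 0.05; Mab21l2 at 3.32 is the highest of these and Utf1 at −2.08 the lowest.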

How the data were processed

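SmartSeq2 libraries of single embryos were sequenced by the study, and per the labels the reads were processed with STAR and HTSeq on GRCm38 (mm10). The authors deposited raw counts per gene in 1 table; the strand setting and the treatment of duplicate reads are not given in the sources used here. CPM were computed from the column totals, and per kb of exon with GENCODE M21, to which 99.5% of genes matched. SO− was compared with SO+ across all genes with edgeR 4.0.16 (TMM scaling, the default filter at a minimum count of 10, quasi-likelihood test, genotype as the only term) in R 4.3.3, with Benjamini-Hochberg adjustment over 12067 genes and a threshold of 0.05. Positive log2 fold changes are higher in SO−. The p-values set the genotype difference against the spread between embryos within each genotype, estimated with information from all genes. The labels do not say whether embryos shared a litter. Depth and the second index followed genotype, so the p-values cannot separate them from genotype.

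The 9 genes and all gene lists were chosen with earlier results of these data known. Named were the 9 genes, each list's genes that passed the test and up to 4 of its most abundant others, neighbours with at least 10 counts in an embryo, and the 5 genes with the most similar mean profile; Sox1, Sall3 and the remaining neighbours were added after their values were seen. Mean log2 CPM had to be at least 3 for that ranking. Alternatives used DESeq2 1.42.0, limma 3.58.1, other scalings and filters, thinned counts and left-out embryos. Some genes of the lists and loci are not reported here, and list counts leave them out. The scripts were tested on simulated data.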

Additional observations from a re-analysis of the deposited data

How the results depend on the processing

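Depth was confounded with genotype, and SO+ rests on 2 embryos, so leaving out 1 leaves a lone embryo assumed to vary like the SO− group. The genes called over the whole table numbered 283, and 91 with limma-voom, with a range of 35 to 573 on leaving out 1 embryo: 180 and 573 without SO+ embryo 1 and 2 and 46, 35 and 263 without SO− embryo 1, 2 and 3. DESeq2 called 381, of which 247 were higher, and thinning all libraries to the smallest left 212, or 209 in a second random draw added after seeing the data. On leaving out 1 embryo the calls ran from 0 to 1 for the family relatives, from 1 to 3 for the anterior list, from 0 to 4 for the neural progenitor list and from 0 to 5 for the surface ectoderm list, with 0 throughout for the neural commitment factors. The neural progenitor list went from 2 calls to 1 with library totals alone, with at least 10 counts in every embryo or with thinned counts, and to 0 with limma-voom or in the second thinned draw. The anterior list had 1 call, and 2 with DESeq2. The cause of these shifts was not tested.

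With the replicate number as a block, 929 genes were called, with 2 family relatives, 4 genes of the anterior list, 4 of the neural progenitor list and 5 of the surface ectoderm list. The numbers only name embryos of different animals and pair nothing: deviations from the group means correlated at 0.0077 for number 1 and 0.115 for number 2, so the block result is given only as a count.

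Over the settings in which each could be fitted, the log2 fold changes of Zic2 (−0.96 to −0.52), Zic5 (−1.28 to −0.71), Six3 (2.26 to 2.48), Sox11 (0.24 to 0.69) and Dmrt3 (3.29 to 4.89) kept their sign. Dmrta1 ran from −0.46 to 1.23 and Sox3 from −0.60 to 0.44. Removing the median of genes of like GC content, an alternative chosen after seeing the data, shifted values by −0.05 to 0.04.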
